A study of Mus musculus with 8 samples.

Results

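The response to the transcription factor ATF4 and the synthesis of serine were followed through 10 genes in mouse ESCs moved from serum to 2i. The genes were chosen by symbol: *Atf4* itself, the regulators *Ddit3* and *Trib3*, the glutathione-degrading enzyme gene *Chac1*, the asparagine synthetase gene *Asns*, the serine synthesis genes *Phgdh*, *Psat1*, and *Psph*, and the mitochondrial one-carbon genes *Shmt2* and *Mthfd2*. They are 10 of the 37263 Ensembl genes counted, and all 10 were among the 14931 genes that passed the filter on low counts.

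The cells were E14, a mouse ESC line of strain 129/Ola that was grown without feeders in LIF and fetal calf serum. The cells were then moved into 2i, in which PD0325901 blocks MEK and CHIR99021 blocks GSK3 and which holds LIF but no serum. Total RNA was sequenced after 4, 16, 24, and 32 hr. The same times were sampled in 2i with 17 µM vitC, the antioxidant L-ascorbic acid, and each of the 8 combinations of time and medium is a single library from this 1 line. All groups therefore share 2i and LIF, and serum libraries were not analysed here.

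ATF4 is the effector of the integrated stress response. Kinases that sense amino acid shortage, misfolded proteins, heme shortage, or double-stranded RNA phosphorylate eIF2alpha, general translation falls, and translation of the *Atf4* mRNA rises. ATF4 then binds C/EBP-ATF response elements in genes for amino acid synthesis, amino acid transport, and tRNA charging. PHGDH, PSAT1, and PSPH make serine from a glycolytic intermediate, and SHMT2 and MTHFD2 pass its one-carbon unit into the mitochondrial folate pool. Since ATF4 is controlled largely in translation, mRNA counts do not measure its protein.

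To show where such elements lie, the promoter of each gene, from 250 bases before to 50 bases after its start in RefSeq, was searched for TGATGNAA on both strands. The promoters of *Chac1*, *Asns*, and *Trib3* held it, 3 of 10 genes, beside 3.97% of the 32851 promoters in the table and 2.71% of the 10551 tested genes with a promoter there. The windows around the matches are printed in the direction of the gene, 5′ to 3′ and in build GRCm38.p6, with the match in capitals, because these 3 genes were all among those that rose. In *Chac1* (chr2:119351009-119351096, plus strand) the match ran from -193 to -186 on the opposite strand. In *Asns* (chr6:7693211-7693277, minus strand) it ran from -23 to -16 on the strand of the gene. In *Trib3* (chr2:152344028-152344057, minus strand) it ran from 15 to 22 after the start on the opposite strand.
Chac1: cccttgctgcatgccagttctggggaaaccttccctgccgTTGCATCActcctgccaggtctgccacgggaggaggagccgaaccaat
Asns: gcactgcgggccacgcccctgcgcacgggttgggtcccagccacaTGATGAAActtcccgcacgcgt
Trib3: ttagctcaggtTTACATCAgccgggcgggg
No other of the 10 genes held these letters in this window, *Atf4* and *Mthfd2*, which also rose, included. The 10 genes were chosen around the ATF4 response, so that their share with a match is not independent of the motif. A match describes the sequence and does not show that a factor binds there.

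The libraries held 4753528 to 18434932 counts. Levels are given as CPM, counts relative to the library total, scaled with TMM factors, and compared between genes only as RPKM, which also divides by merged exon length. All 7 ESC markers were detected at 34 CPM or more in every library, with a summed level of 1740 to 2270 CPM. At 32 hr against 4 hr, edgeR's test described below called 3 of them higher, *Sox2* 2.22-fold, *Tfcp2l1* 1.64-fold, and *Esrrb* 1.57-fold. It called 2 lower, *Zfp42* (log2 -0.75) and *Pou5f1* (log2 -0.50), while *Nanog* and *Klf4* did not pass. Of all tested genes 13.5% were higher and 11.8% lower. The fibroblast list summed to 109 to 125 CPM at 4 hr and 282 to 690 CPM later, most of it from *Col1a1* (47.6 to 419 CPM) and *Col1a2* (39.4 to 234 CPM). At 32 hr against 4 hr, 4 of its 7 genes were higher in edgeR's test described below, *Col1a2* 4.41-fold, *Pdgfra* 3.21-fold, *Col1a1* 2.56-fold, and *Pdgfrb* 1.69-fold, and 1 was lower, *Thy1* (1 to 6.52 CPM, log2 -1.80), while *Twist2* (0.148 to 2.69 CPM) and *Col3a1* did not pass. The 4 tested primitive endoderm markers summed to 3.95 to 16.4 CPM, and *Sox17* (at most 4.72 CPM, adjusted p = 0.0302) and *Pdgfra*, which is also on the fibroblast list, were higher at 32 hr. The 6 markers of stressed or dying cells summed to 99.9 to 219 CPM. Of these *Gadd45a* (2.32-fold, adjusted p = 0.000758) and *Cdkn1a* (1.99-fold, adjusted p = 0.00788) were higher at 32 hr and *Hspa1a* (log2 -2.95) and *Hspa1b* (log2 -1.79) lower. Reads on *Lars2*, Gm23935, and ENSMUSG00000093077 took 0.0113% to 0.0277% of counts at 4 hr and 0.206% to 7.11% later. The *Lars2* share, *Col1a1*, *Col1a2*, *Pdgfrb*, *Cdkn1a*, and, from 24 hr, *Pdgfra* and *Gadd45a* were higher than at 4 hr together with the 5 genes described next. Other markers of stressed or dying cells did not rise with them. *Hspa1a* and *Hspa1b* were lower at 16, 24, and 32 hr. *Pmaip1* was lower at 16 hr (log2 -1.045, adjusted p = 0.042 in edgeR's test), and *Bbc3* did not pass at any time. The part of these markers was not tested, and that of the *Lars2* reads was examined with a covariate. Because this share was low in both 4 hr libraries and higher in every later one, that fit cannot fully separate it from the change since 4 hr. In bulk RNA, a change in the cells present and a change in RNA per cell cannot be told apart. The 4 and 24 hr libraries shared a sequencing lane, as did the 16 and 32 hr libraries, so that a comparison of 16 or 32 hr with 4 hr also compares lanes, and these cannot be told apart.

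Per exon length, *Asns* was the highest of the 10 genes, with a mean of 294.1 RPKM over the 8 libraries and a range of 218.3 to 419.3 RPKM. *Atf4* followed with 194.1 RPKM (126.7 to 334.2) and *Psat1* with 152.5 RPKM (107.3 to 179.2), and each overlapped its neighbour in range. *Shmt2*, with a mean of 45.67 RPKM, did not reach the range of *Psat1* in any library but overlapped that of *Mthfd2* (32.48 RPKM). *Trib3* (17.67 RPKM), *Psph* (11.97 RPKM), *Chac1* (11.2 RPKM), and *Ddit3* (10.99 RPKM) were lower, with overlapping ranges. *Phgdh* was lowest with 6.752 RPKM, overlapping *Ddit3*, but 63.1% of the 50-base stretches of its longest transcript also occur in transcripts of 23 other genes, so that its level is uncertain where reads could be lost to these copies.

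**Figure D1:**
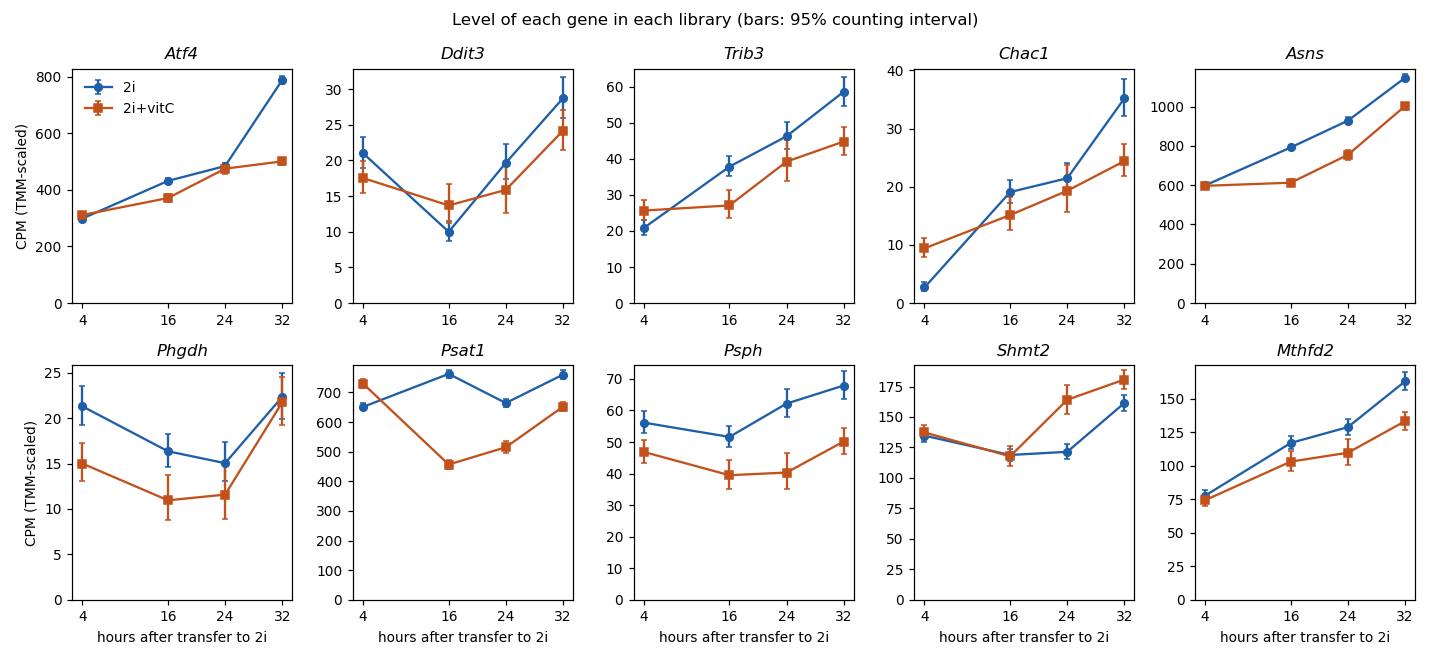
CPM (vertical axis, starting at 0 with its own scale per gene) of the 10 genes against hours after transfer to 2i, in 2i (blue circles) and 2i with vitC (orange squares). Each point is 1 library and bars are 95% counting intervals. *Atf4*, *Trib3*, *Chac1*, *Asns*, and *Mthfd2* were above both 4 hr libraries in all 6 later libraries. For *Trib3* and *Asns* the interval at 16 hr with vitC overlapped that at 4 hr with vitC.

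*Atf4*, *Trib3*, *Chac1*, *Asns*, and *Mthfd2* rose from 4 to 32 hr. The other 5 genes did not pass the test. Time was tested with edgeR's quasi-likelihood model of time and medium on all 8 libraries, with Benjamini-Hochberg adjusted p-values over 14931 genes. Its error is the departure of the 2 media from a common time course, not a spread between replicate cultures. For each gene this error is moderated toward a trend over all tested genes. The p-values therefore rest on more than the gene's own 3 residual degrees of freedom. At 32 hr against 4 hr, 13.5% of all tested genes were higher and 11.8% lower, and of the 10 genes 5 were higher and 0 lower. Their median log2 fold change was 0.65, beside 0.0048 over all genes.

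In 2i at 4, 16, 24, and 32 hr, in this order here and below, *Atf4* was at 298.7, 431.8, 484.2, and 788.1 CPM. With vitC it was at 311.1, 371.3, 475.0, and 500.8 CPM. The 4 hr libraries were the lowest and the 2i library at 32 hr stood highest. The rise from 4 to 32 hr was 2.08-fold (log2 1.05, SE 0.17, adjusted p = 0.00109), with 2.64-fold in 2i and 1.61-fold with vitC.

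*Trib3*, a pseudokinase that restrains ATF4 and AKT signalling, was at 20.83, 37.85, 46.28, and 58.63 CPM in 2i. With vitC it was at 25.67, 27.09, 39.25, and 44.82 CPM. All 6 later libraries were above both 4 hr libraries, the vitC library at 16 hr only narrowly. The rise to 32 hr was 2.20-fold (log2 1.14, SE 0.20, adjusted p = 0.00166).

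*Chac1* encodes a gamma-glutamyl cyclotransferase that degrades glutathione. It was at 2.677 CPM at 4 hr in 2i (46 counts, 95% interval 2.007 to 3.57), then at 19.08, 21.46, and 35.18 CPM. With vitC it was at 9.402 CPM at 4 hr (126 counts, interval 7.897 to 11.19), then at 15.13, 19.3, and 24.41 CPM. The 4 hr libraries were again lowest, and the 2i library at 4 hr was far below the vitC library of the same time. *Chac1* had the largest fold change of the 10 genes, 5.12-fold from 4 to 32 hr (log2 2.36, SE 0.42, adjusted p = 0.00187). This size depended on the 4 hr libraries, with log2 1.47 without the 2i library and 3.62 without the vitC library, and was 13.1-fold within 2i and 2.60-fold within vitC.

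*Asns*, which makes asparagine from aspartate and glutamine, was at 599.1, 792.6, 929.0, and 1147 CPM in 2i. With vitC it was at 597.0, 612.9, 754.9, and 1003 CPM. Both media began at nearly the same level and ended highest at 32 hr. The rise was 1.79-fold (log2 0.84, SE 0.14, adjusted p = 0.00149).

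*Mthfd2* encodes a mitochondrial dehydrogenase and cyclohydrolase of the folate pathway. It was at 77.63, 116.9, 128.7, and 162.8 CPM in 2i, and at 74.24, 103.0, 109.6, and 133.1 CPM with vitC. It was the only gene of the serine and one-carbon group among the 10 to pass the test, with 1.94-fold more at 32 hr (log2 0.96, SE 0.13, adjusted p = 0.000447).

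These 5 calls were kept whichever of the 8 libraries was left out. With the share of *Lars2* reads as a covariate, which itself differs between 4 hr and all later times, the log2 fold changes were larger in all 5. *Trib3* (log2 1.84, adjusted p = 0.0351) and *Chac1* (log2 4.17, adjusted p = 0.0233) kept their call, and *Atf4* (log2 1.49, adjusted p = 0.0507), *Asns* (log2 1.10, adjusted p = 0.0723), and *Mthfd2* (log2 1.06, adjusted p = 0.0887) did not.

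**Figure D2:**
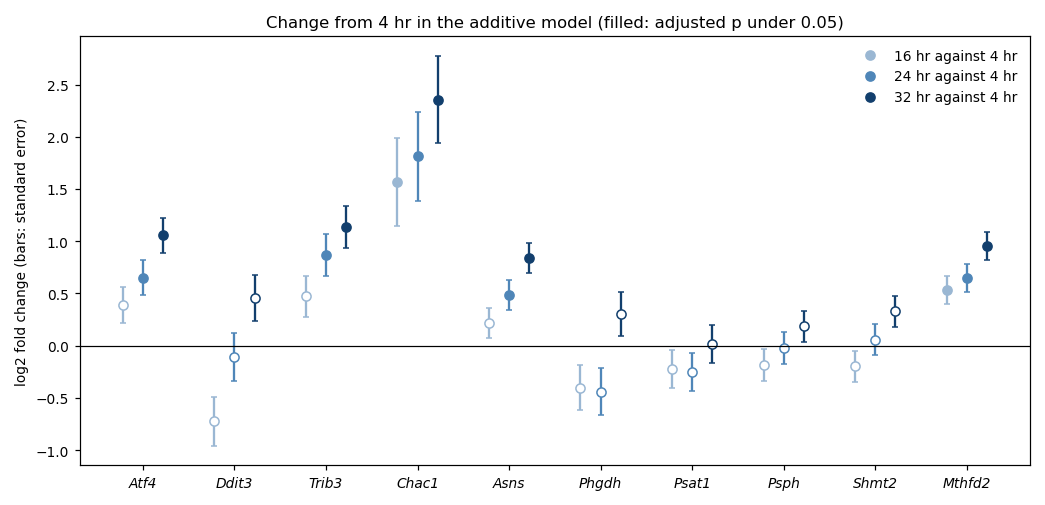
log2 fold change from 4 hr (vertical axis) at 16, 24, and 32 hr for each of the 10 genes, from edgeR's model of time and medium on 8 libraries. Bars are standard errors and filled points have an adjusted p under 0.05; the filled points lie above 0 and belong to *Atf4*, *Trib3*, *Chac1*, *Asns*, and *Mthfd2*.

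The rise was visible before 32 hr. At 16 hr against 4 hr, 9.16% of all genes were higher and 7.24% lower, and 2 of the 10 genes were higher, *Chac1* (log2 1.57, SE 0.42, adjusted p = 0.0260) and *Mthfd2* (log2 0.53, SE 0.13, adjusted p = 0.0205). Neither call was kept when the 2i library at 4 hr or at 16 hr was left out, and without the vitC library at 4 hr *Chac1* alone remained. *Mthfd2* also lost its call without the vitC library at 16 hr, and *Chac1* had log2 0.68 without the 2i library at 4 hr and 2.82 without the vitC library at 4 hr. At 24 hr against 4 hr, the comparison within a lane, 11.5% of all genes were higher and 8.98% lower, and the same 5 genes as at 32 hr were higher. *Atf4* rose 1.57-fold (log2 0.65, SE 0.17, adjusted p = 0.0182), *Trib3* 1.82-fold (adjusted p = 0.0106), *Chac1* 3.52-fold (adjusted p = 0.0113), *Asns* 1.40-fold (adjusted p = 0.0315), and *Mthfd2* 1.56-fold (adjusted p = 0.00638). Without the 2i library at 4 hr or at 24 hr 1 of these calls was left and without the vitC library at 24 hr 0, whereas the log2 fold changes stayed above 0. *Chac1* had log2 0.93 without the 2i library at 4 hr and 3.08 without the vitC library at 4 hr. With the *Lars2* covariate, which cannot be fully separated from the change since 4 hr, 0 of the 10 genes were called at 16 or 24 hr. In that fit the log2 fold changes of the genes called without it were larger. At 16 hr they were 3.27 for *Chac1* and 0.63 for *Mthfd2*, and at 24 hr 4.23 for *Chac1*, 1.80 for *Trib3*, 1.22 for *Atf4*, 0.83 for *Asns*, and 0.79 for *Mthfd2*. The 24 hr call on *Chac1* was also lost with DESeq2 and with a robust prior, and its 16 hr call with both.

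*Ddit3*, which encodes the pro-apoptotic factor CHOP, followed another course. In 2i it was at 21.01, 9.987, 19.66, and 28.72 CPM. With vitC it was at 17.53, 13.69, 15.87, and 24.16 CPM. In both media the 16 hr library was lowest and the 32 hr library highest. From 4 to 16 hr the log2 fold change was -0.73 (SE 0.23, adjusted p = 0.0512), which passed with no filter (adjusted p = 0.024), with a robust prior (adjusted p = 0.0463), and without the vitC library at 16 hr (adjusted p = 0.0246), and from 16 to 32 hr *Ddit3* rose 2.27-fold (log2 1.18, SE 0.23, adjusted p = 0.0454). It was the only one of the 10 genes to pass between 16 and 32 hr, also a comparison within a lane, where 0.335% of all genes were higher and 0.248% lower. All 10 log2 fold changes were above 0 there, with *Asns* at 0.62 (adjusted p = 0.075) and *Atf4* at 0.67 (adjusted p = 0.0991, 0.35 to 0.95 when 1 library was left out). The call was lost without the 2i library at 16, 24, or 32 hr and without the vitC library at 24 or 32 hr. The exons of *Ddit3* overlap those of *Mars* and Gm4189 on the other strand, and the strand setting of the counting is not given in the sources used here.

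The 3 genes of serine synthesis itself did not pass the test at any time. *Psat1*, the aminotransferase of the second step, was at 651.1, 762.5, 664.2, and 759.9 CPM in 2i and at 729.7, 456.6, 514.9, and 651.6 CPM with vitC. The media moved apart at 16 hr, where the vitC library was the lowest of the 8 and the 2i library the highest. From 4 to 32 hr the log2 fold change was 0.01 (SE 0.18, adjusted p = 0.969). *Phgdh*, the dehydrogenase that opens the pathway, was at 21.3, 16.35, 15.04, and 22.34 CPM in 2i and at 15.0, 10.95, 11.58, and 21.74 CPM with vitC, with the middle times low in both media. Its log2 fold change from 4 to 32 hr was 0.30 (SE 0.21, adjusted p = 0.312), and 0.084 to 0.53 when 1 library was left out. *Psph*, the phosphatase of the last step, was at 56.15, 51.62, 62.18, and 67.91 CPM in 2i and at 46.86, 39.48, 40.32, and 50.15 CPM with vitC, so that the vitC library was lower at each time. Its log2 fold change was 0.19 (SE 0.15, adjusted p = 0.392), and its exons overlap *Cct6a* on the other strand by 452 bases. *Shmt2*, which splits serine into glycine and a one-carbon unit, was at 134.7, 118.8, 121.4, and 161.4 CPM in 2i and at 137.3, 117.7, 164.1, and 180.7 CPM with vitC. The 32 hr libraries were the highest of each medium, and the log2 fold change was 0.33 (SE 0.15, adjusted p = 0.118).

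Over the 8 libraries, the 5 genes that rose were correlated in log2 CPM with Pearson r from 0.782 to 0.958 over their 10 pairs (median 0.933), which describes a shared time course in libraries that also share depth and *Lars2* reads. The other 5 genes had r from 0.0508 to 0.759 (median 0.609), and the 3 serine synthesis genes from 0.717 to 0.759. The 5 genes that rose were grouped by their rise in these same libraries. High r among them, and the contrast with the other 5, therefore follow in part from the grouping. Among 10448 protein-coding genes, those most like the mean of the 10 were *Esrra* (r = 0.989, n = 8 libraries), *Rasa3* (0.981), *Acaa2* (0.981), *Ptpn6* (0.98), and *Sertad3* (0.978). Being the top of a ranking over 8 libraries, they have a high r in part by selection. The mean was not scaled per gene, so that genes with large changes, such as *Chac1*, weigh most in it. *Esrra* was at 18.9, 25.4, 30.8, and 41.2 CPM in 2i and at 22.6, 20.9, 24.4, and 36.2 CPM with vitC.

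To place the 10 genes in their pathway, 5 further lists were examined. Among 28 tested of 29 other ATF4 targets, 16 were higher and 2 lower at 32 hr against 4 hr, and 10 did not pass, with a median log2 fold change of 0.99. Of all tested genes, 13.5% were higher and 11.8% lower. *Nupr1*, a stress-induced chromatin protein, rose 6.13-fold (log2 2.62, SE 0.27, adjusted p = 6.51e-05), from 6.28 to 39.3 CPM in 2i and from 3.88 to 23.7 CPM with vitC. *Vldlr*, a lipoprotein receptor, rose 5.76-fold (adjusted p = 0.000229) and *Stc2*, a secreted glycoprotein, 4.59-fold (adjusted p = 9.81e-05). The 2 that fell were *Cth*, an enzyme of cysteine synthesis (log2 -0.80, adjusted p = 0.0123), and *Slc7a3*, a cationic amino acid transporter (log2 -0.69, adjusted p = 0.0271). With the *Lars2* covariate 5 of these targets were higher and 0 lower, and when 1 library was left out 13 to 15 were higher and 0 to 3 lower. The 2 falls were lost without the 2i or the vitC library at 32 hr or the vitC library at 4 hr. The number higher was 12 at 16 hr and 13 at 24 hr, with 4 and 3 lower. Of all tested genes, 9.16% were higher and 7.24% lower at 16 hr, and 11.5% and 8.98% at 24 hr. Between 16 and 32 hr only *Stc2* (2.29-fold, adjusted p = 0.0426) and *Pck2* (1.68-fold, adjusted p = 0.0463) were called, both higher, beside 0.335% higher and 0.248% lower among all genes. *Atf3*, a factor of the same response, was lower at 16 hr (log2 -1.02, adjusted p = 0.0106) and at 24 hr (log2 -0.99, adjusted p = 0.00999).

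Of the 14 targets higher at 32 hr that have a promoter in the table, 6 held TGATGNAA, namely *Nupr1*, *Pck2*, *Pycr1*, *Slc1a4*, *Slc7a11*, and *Vldlr*. Of all 23 other ATF4 targets with a promoter, 8 held it. Several of these genes are known for such elements, so that the list is not independent of the motif.

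ATF4 also controls genes for charging tRNAs. Of 12 cytosolic aminoacyl-tRNA synthetases 1 was higher at 32 hr, 0 lower, and 11 did not pass, with a median log2 fold change of 0.20, beside 13.5% higher and 11.8% lower among all genes. *Cars*, for cysteine, rose 1.51-fold (log2 0.60, SE 0.14, adjusted p = 0.00987). *Wars*, for tryptophan, was lower at 16 hr (log2 -0.48, adjusted p = 0.0379) and 24 hr (log2 -0.51, adjusted p = 0.0268). In 5 of the 8 synthetases with a listed promoter TGATGNAA was present, and this list too is not independent of the motif. The call on *Cars* was lost without the 2i library at 4 or 32 hr or the vitC library at 32 hr, and with the *Lars2* covariate.

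Of 21 other serine, glycine, and folate genes, 2 were higher at 32 hr, 5 lower, and 14 did not pass (median log2 -0.21), beside 13.5% higher and 11.8% lower among all genes. *Aldh1l1*, the cytosolic enzyme that oxidises 10-formyltetrahydrofolate, rose 4.77-fold (log2 2.25, SE 0.22, adjusted p = 4.06e-05). *Mat2a*, which makes S-adenosylmethionine, was at 544 CPM at 4 hr and 225 CPM at 32 hr in 2i and at 564 and 238 CPM with vitC (log2 -1.26, SE 0.13, adjusted p = 6.81e-05). *Atic*, a purine synthesis enzyme that uses a folate one-carbon unit (log2 -0.94, adjusted p = 0.000526), and *Gcsh*, the carrier protein of glycine cleavage (log2 -0.92, adjusted p = 0.000513), also fell. Without the 2i or vitC library at 4 or 32 hr 1 gene was higher in place of 2, and with the *Lars2* covariate 0 genes of this list were called. No promoter of the 18 in the table held TGATGNAA.

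Upstream of ATF4, 2 of 17 eIF2alpha kinases and control genes were higher at 32 hr, 4 lower, and 11 did not pass (median log2 -0.27). Among all genes 13.5% were higher and 11.8% lower. *Eif2ak4*, the kinase GCN2 that senses uncharged tRNA, rose 1.45-fold (adjusted p = 0.0326), from 36.6 to 48.5 CPM in 2i and from 31.0 to 49.8 CPM with vitC. *Impact*, an inhibitor of GCN2 activation, fell by 0.84 on the log2 scale (SE 0.14, adjusted p = 0.00155), from 400 to 259 CPM in 2i and from 436 to 212 CPM with vitC. *Eif2b1*, a subunit of the exchange factor that phosphorylated eIF2alpha blocks, fell as well (log2 -0.81, adjusted p = 0.00146), as did *Eif2ak1*, the heme-regulated kinase (log2 -0.73, adjusted p = 0.0147). The phosphorylation of eIF2alpha was not measured. With the *Lars2* covariate 0 genes of this list were called, and the 2 rises were both lost without the 2i or vitC library at 32 hr or the vitC library at 4 hr. Without the 2i library at 4 hr 1 rise was left, and without the vitC library at 32 hr 2 of the falls.

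The unfolded protein response also has branches that run through XBP1 and ATF6. Of 20 of their genes 2 were higher at 32 hr, 3 lower, and 15 did not pass (median log2 -0.17), which is near the shares of all genes (13.5% and 11.8%). *Hspa5*, the chaperone BiP, was 0.450 times its level at 4 hr (log2 -1.15, SE 0.16, adjusted p = 0.000441), *Manf* had log2 -0.54 (adjusted p = 0.0131), and *Dnajb11* log2 -0.50 (adjusted p = 0.0300). *Herpud1* (1.54-fold, adjusted p = 0.0256) and *Xbp1* (1.44-fold, adjusted p = 0.0219) rose. Without the 2i or vitC library at 32 hr or the 2i library at 4 hr 0 were higher and 1 lower, and with the *Lars2* covariate 0 were higher and 1 lower.

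**Figure D3:**
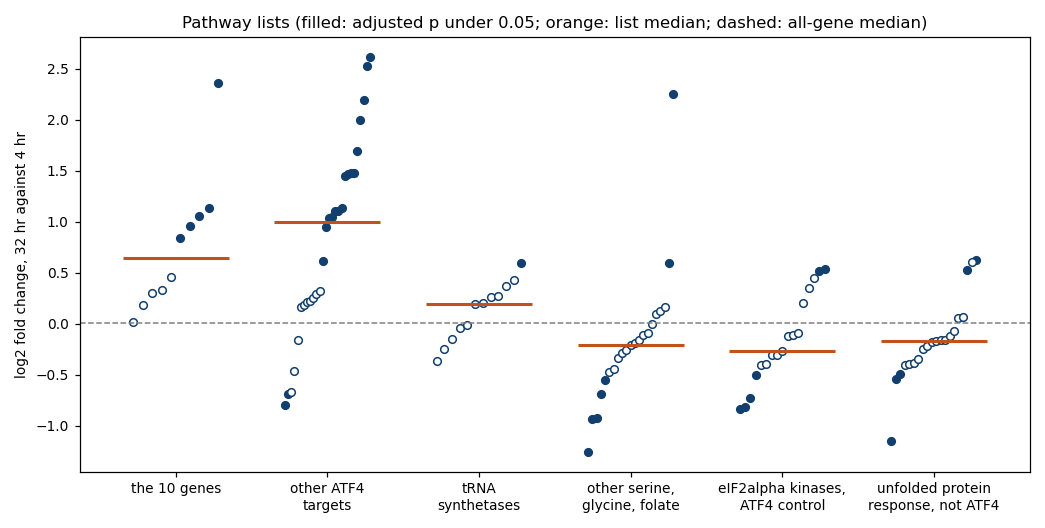
log2 fold change at 32 hr against 4 hr (vertical axis) for the tested genes of each list, sorted within the list. Filled points have an adjusted p under 0.05, orange lines are list medians, and the dashed line is the median of all genes. The medians were 0.65 for the 10 genes and 0.99 for other ATF4 targets, and between -0.27 and 0.20 for the other lists.

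With vitC, none of the 10 genes passed the test over the 4 times (edgeR's quasi-likelihood test with time as a block), 3 had an unadjusted p under 0.05, and DESeq2 called 0. Among all genes edgeR called 0.107% higher and 0.0603% lower, 13.8% had an unadjusted p under 0.05, and DESeq2 called 299. The closest was *Psph* (log2 -0.42, SE 0.11, adjusted p = 0.103), lower with vitC at 4 of 4 times. *Asns*, *Phgdh*, and *Mthfd2* were lower at 4 of 4 times as well. The other unadjusted p-values under 0.05 were those of *Phgdh* (log2 -0.37, SE 0.16, adjusted p = 0.315) and *Psat1* (log2 -0.29, SE 0.13, adjusted p = 0.346). At 4 hr 5 of 10 genes were lower with vitC, and at 16, 24, and 32 hr 9 of 10 were. Of all tested genes 48.8%, 52.0%, 51.8%, and 49.8% were lower at these 4 times. These counts are over genes of the same libraries, which are not replicates. No gene of the 5 pathway lists passed the test for vitC. With the *Lars2* covariate 0 of the 10 genes were called. The vitC log2 value became smaller for *Psat1* (to -0.10), *Atf4* (-0.21 to -0.095), *Trib3* (-0.20 to -0.017), and *Asns* (-0.22 to -0.15). It became larger for *Ddit3* (-0.10 to -0.26) and *Chac1* (0.093 to 0.60), and changed little for *Psph*, *Phgdh*, *Shmt2*, and *Mthfd2*.

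Single times gave larger ratios. *Atf4* at 32 hr was 0.635 times its 2i level (log2 -0.65, 95% counting interval -0.70 to -0.61), whereas at 24 hr the ratio was 0.981. *Psat1* at 16 hr was 0.599 times its 2i level (log2 -0.74, interval -0.80 to -0.68). *Ddit3* went the other way at 16 hr, 1.37-fold higher with vitC (log2 0.45, interval 0.099 to 0.81). *Chac1* at 4 hr was 3.51-fold higher with vitC (log2 1.81, interval 1.33 to 2.30) and lower at the 3 later times, between 0.694 and 0.900 times its 2i level. These intervals cover counting error between 2 libraries only, and not a spread between cultures. The vitC libraries at 16, 24, and 32 hr held 7.11%, 6.37%, and 4.21% of counts on the *Lars2* features, beside 0.206%, 5.92%, and 0.564% in 2i, and their part in these ratios was not tested.

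Whether the vitC effect depended on the hour was tested by an added linear term, and 0 genes passed, 0% in either direction, with 431 at an unadjusted p under 0.05 and 1 called by DESeq2. Of the 10 genes only *Chac1* had an unadjusted p under 0.05 (adjusted p = 1 from edgeR's quasi-likelihood test), with a slope of the log2 ratio per hour of -0.07.

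**Figure D4:**
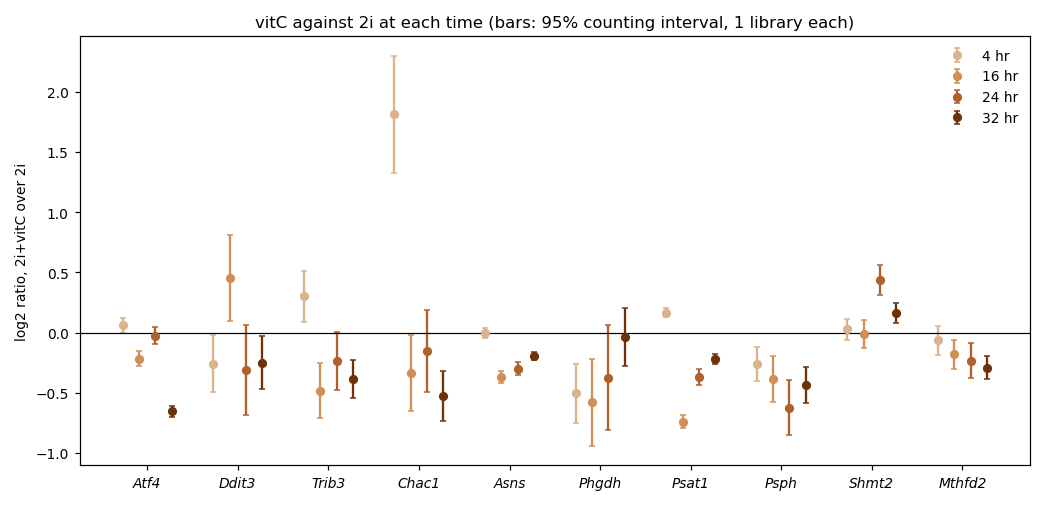
log2 ratio of CPM in 2i with vitC over 2i (vertical axis) at 4, 16, 24, and 32 hr for each of the 10 genes, 1 library each. Bars are 95% counting intervals. *Chac1* at 4 hr stands at 1.81, whereas most points at later times lie below 0, with *Ddit3* above 0 at 16 hr and *Shmt2* at 24 and 32 hr.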

How the data were processed

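Total RNA was depleted of ribosomal RNA and sequenced as 50-base single reads from TruSeq libraries, and the authors deposited raw counts per Ensembl gene without normalization. The submitters' processing notes name GSNAP, HTSeq, and the builds NCBIM37 and mm9. The annotation release and strand setting are not given in the sources used here, and reads shared by near-identical genes or antisense partners could be lost or misassigned. PD0325901 and CHIR99021 doses are in mM in the labels and in µM in the study's methods. Groups came from the labels, and the lane from the names of the deposited files.

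Symbols, exon lengths, and overlaps came from GENCODE M21, in which 32604 of 37263 identifiers were found, and promoters from RefSeq (GRCm38.p6). No coordinates of the deposited files were used. The 14931 genes that reached 1 CPM in 2 or more libraries were tested with edgeR 4.0.16 in R 4.3.3 (TMM, quasi-likelihood, Benjamini-Hochberg, threshold 0.05), with 3 residual degrees of freedom for time and vitC and 2 for the added term. Log2 CPM, used for correlations and for the single-media alternatives, had a prior count of 2. The vitC ratios at single times had none, and the tested log2 fold changes came from the fitted models. Intervals are Wilson 95% intervals for levels and cover counting error only. With 1 library a group there are no replicate cultures. The scripts were tested on simulated data. DESeq2 1.42.0 was an alternative, as were other scalings, other filters, GC and length offsets, the *Lars2* share as a covariate, other model terms, and single media. Leaving out each library was chosen after seeing the data.

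The 10 genes and all lists were chosen with earlier results of these data known. All 10 were named, and from each list up to 3 genes with the largest rise and 3 with the largest fall among those called whose mean reached 5 CPM. The 5 genes most like the 10 had the highest Pearson r with their mean. Not every gene the rule covers is reported here. The 6 targets with the motif were named after their values were seen.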

Additional observations from a re-analysis of the deposited data

Results flagged for a closer look

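Some genes moved in opposite directions in the 2 media, with counting intervals apart from 0. With 1 library a group, these differences were not tested singly, and the test of a change with hours called none. *Psat1* at 16 hr against 4 hr had a log2 ratio of 0.23 in 2i and -0.68 with vitC, and at 32 hr against 4 hr 0.22 in 2i and -0.16 with vitC. *Shmt2* at 24 hr against 4 hr had -0.15 in 2i and 0.26 with vitC. In 4 genes the log2 ratio of vitC to 2i was above 0 at 4 hr and below 0 at 16, 24, and 32 hr. At 4 hr it was 1.81 for *Chac1*, 0.30 for *Trib3*, and 0.16 for *Psat1* (interval 0.13 to 0.20), with counting intervals above 0, and 0.059 for *Atf4*, with an interval that includes 0. At 24 hr the intervals of *Chac1*, *Trib3*, and *Atf4* included 0.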

How the results depend on the processing

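At 32 hr against 4 hr, 5 of the 10 genes were called, 2 with the *Lars2* covariate, 6 with GC and length offsets (with *Ddit3*, adjusted p = 0.0332), and 5 in each fit that left out 1 library. At 16 hr the count of 2 became 1 with DESeq2, 3 with no filter (with *Ddit3* lower), and 0 with the *Lars2* covariate or without the treatment term, stayed 2 with a robust prior (*Ddit3* lower in place of *Chac1*), and was 0 to 2 when 1 library was left out. At 24 hr the count of 5 became 0 with the covariate, 3 without the treatment term, and 4 with DESeq2 or a robust prior (without *Chac1*), and 0 to 5 when 1 library was left out. Between 16 and 32 hr the count of 1 became 0 with total counts without the *Lars2* features, with at least 5 CPM in 4 libraries, or without the treatment term, 2 with GC and length offsets, the covariate, or a robust prior, 3 with DESeq2, and 6 with no filter, and 0 to 1 when 1 library was left out. For vitC the count of 0 became 1 with no filter (*Psph*).

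Among alternative values of the called genes, 184 kept direction and, where a test was made, the call. These include values from single media, which had no test. Another 47 kept direction but not the call, and 16, all from single media without a test, moved. Every reversed sign was in a comparison in which the gene was not called. For *Psat1* the log2 fold change at 16 hr against 4 hr was 0.44 with the covariate, 0.23 in 2i alone, and -0.52 to 0.076 when 1 library was left out. At 24 hr it was 0.69, 0.029, and -0.54 to 0.064 in the same order. At 32 hr against 4 hr it was -0.16 with vitC alone and -0.27 to 0.33 when 1 library was left out, and at 32 hr against 16 hr -0.0048 in 2i alone and -0.045 to 0.54. For *Ddit3* it was 0.16 at 24 hr with GC and length offsets and -0.26 to 0.0091 when 1 library was left out, and -0.17 at 32 hr against 4 hr with the covariate. For *Psph* at 24 hr it was 0.044 with total counts without the *Lars2* features, 0.0058 with GC and length offsets, 0.015 with the covariate, 0.0081 without the treatment term, 0.15 in 2i alone, and -0.17 to 0.10 when 1 library was left out. For *Shmt2* at 24 hr it was -0.15 in 2i alone and -0.13 to 0.24. For vitC, *Chac1* had -0.20 without the time block, -0.34 without the 4 hr pair, and -0.35 to 0.36 when 1 library was left out. The change of the vitC effect of *Ddit3* was 0.012 on log2 hours. The cause of these shifts was not tested.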
